A study of Saccharomyces cerevisiae with 17 samples.

Results

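In budding yeast given NaCl with or without the exonuclease Xrn1, 162 of the 5809 genes with an overall mean of at least 20 normalized counts had higher mRNA levels in the Xrn1-depleted arm at all 3 times sampled. That is 2.79% of them, out of 7126 features counted. They were chosen from these same data: with 1 added to each mean, the Xrn1-AID mean had to exceed the Xrn1-WT mean by at least 75% at each of 0, 10 and 30 min. A difference between the arms is therefore a description of these genes and carries no test below. Only changes over time within an arm are tested. The rule set no condition on these changes, but it used the same group means, so the tests are not fully independent of the choice.

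All 17 libraries came from the Saccharomyces cerevisiae strain BY25598, which is MATa and carries XRN1-AID (HIS). Its other alleles are leu2-3,112 and his3-11,15 with ade2-1, can1-100 and trp1-1, and at ura3-1 sits ADH1-OsTIR1-9Myc(URA3). Both arms therefore carry the degron on Xrn1 and the plant auxin receptor OsTIR1 from the ADH1 promoter. Cells growing in log phase in YPD at 30 °C received 500 µM auxin for 30 min (Xrn1-AID) or none (Xrn1-WT). They were then sampled before (0 min) or 10 or 30 min after the addition of 0.4 M NaCl. There were 3 libraries per group, and 2 for Xrn1-AID at 30 min. Per the series' design text, under 10% of the Xrn1 protein was left after auxin. No solvent control is among the groups, so the loss of Xrn1 and auxin itself cannot be told apart. Libraries are named by arm, minutes in NaCl and replicate, and values for a group follow in the order of replicates 1, 2 and 3.

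Xrn1 is the main cytoplasmic exonuclease that degrades mRNA from its 5′ end once the cap has been removed. It also removes transcripts that translation marks as faulty, such as those with a premature stop codon, which reach it through the Upf proteins of nonsense-mediated decay. In yeast it further clears many noncoding transcripts, and it moves between cytoplasm and nucleus.

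Shown first, for some members, are sequences around the first stop codon in frame with the annotated start. The reason is that 11 of the 162 genes were found by words in their RefSeq notes linked to interrupted frames. The words included blocked or merged frame, in-frame stop, frameshift, readthrough, remnant, pseudogene and nonsense. Each line gives 30 bases, the stop codon in capitals and 30 bases more, read on the coding strand of the RefSeq R64 (sacCer3) genome. That reference is strain S288C, and the alleles of BY25598 at these sites are not known from the files.
FLO8 (chrV:377159-377221, minus strand): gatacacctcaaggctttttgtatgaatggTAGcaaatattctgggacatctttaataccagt
AAD6 (chrVI:14763-14825, minus strand): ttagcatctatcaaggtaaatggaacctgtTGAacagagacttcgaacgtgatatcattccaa
SDL1 (chrIX:29383-29445, plus strand): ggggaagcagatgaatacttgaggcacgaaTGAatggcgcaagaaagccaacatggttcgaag
NIT1 (chrIX:34057-34119, minus strand): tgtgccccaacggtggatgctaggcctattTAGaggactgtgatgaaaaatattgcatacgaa
YLR030W (chrXII:204049-204111, plus strand): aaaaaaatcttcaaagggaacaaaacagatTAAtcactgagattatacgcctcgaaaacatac
In FLO8 the stop is codon 142 of 800 and in SDL1 codon 128 of 339, while in AAD6 it is codon 213. The annotated AAD6 locus spans 375.7 codons, not a whole number, so no single frame runs from its start to its end. In NIT1 and YLR030W it ends the annotated frame, at codons 200 and 264, and the notes place the continuation in the adjacent YIL165C and YLR031W.

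The genes that come first are ranked by the smallest of their 3 ratios, which does not show how steady the excess was across libraries. YJR154W, an uncharacterized gene, had the largest smallest ratio, with Xrn1-AID to Xrn1-WT ratios of 5.48, 5.34 and 4.28 at 0, 10 and 30 min. Its 0 min libraries held 29.7, 57.4 and 9.70 normalized counts with Xrn1 and 201, 164 and 179 after its depletion. At 30 min the Xrn1-WT libraries held 18.6, 26.8 and 14.8 and the 2 Xrn1-AID libraries 55.7 and 123. The arms did not overlap at any time, including 10 min, with 24.1, 1.85 and 10.5 against 63.4, 73.3 and 71.1.

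RTG1, a helix-loop-helix factor that signals mitochondrial state to the nucleus, followed with ratios of 5.98, 7.02 and 4.13. Its Xrn1-WT libraries held 58.4, 116 and 4.04 normalized counts before NaCl, then 38.8, 16.7 and 35.6 after 10 min, then 71.1, 57.4 and 65.2 after 30 min. In Xrn1-AID it held 360.03, 327 and 394, then 257, 212 and 188, then 109.6 and 430.4. Every Xrn1-AID value lay above every Xrn1-WT value of its time, but Xrn1-WT 0 min replicate 3 was far below its replicates and Xrn1-AID 30 min replicate 1 far below the other. NUT2, a subunit of the Mediator complex, showed the same 2 low libraries, with 28.7, 74.1 and 8.08 against 199, 169 and 231 at 0 min and 40.6, 42.5 and 42.5 against 77.1 and 255 at 30 min. Its arms did not overlap at any of the 3 times.

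POP3, a protein subunit of the RNase MRP and RNase P enzymes, had ratios of 3.88, 3.42 and 3.25. It held 139, 184 and 62.2 normalized counts in Xrn1-WT and 413, 592 and 499 in Xrn1-AID at 0 min, and 76.1, 72.3 and 57.3 against 189 and 261 at 30 min, again with no overlap. NIT1, the nitrilase gene shown above, had a mean of 164 ± 41.1 in Xrn1-WT and 667 ± 30.1 in Xrn1-AID at 0 min (SD, n = 3 each), and 212 ± 43.0 (n = 3) against 681 ± 69.0 (n = 2) at 30 min. The other 5 of the 10 were YLR125W, SLO1, ENT4, MCO14 and YIL028W. Their smallest ratios lay between those of RTG1 and POP3. ENT4 encodes an epsin-type protein of the endocytic family. It held 115 and 347 normalized counts in the 2 Xrn1-AID libraries of 30 min. Without replicate 2 of that group, RTG1 and ENT4 were no longer members.

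**Figure D1:**
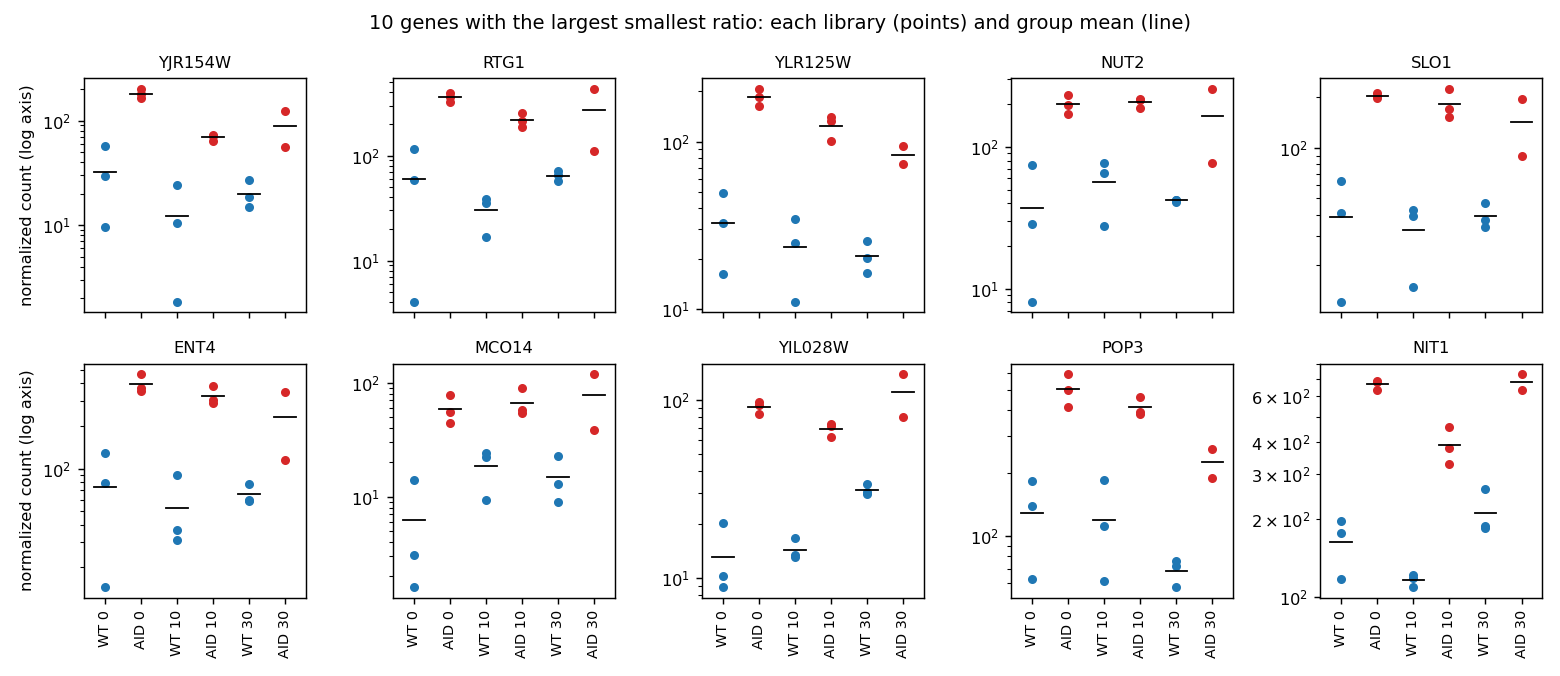
Normalized counts (log axis) of the 10 genes with the largest smallest ratio, 1 panel a gene, in the 6 groups (Xrn1-WT blue, Xrn1-AID red); points are libraries and lines group means. In each panel the red points of a time lie above the blue points of that time, and Xrn1-WT 0 min replicate 3 supplies the lowest blue point of its group.

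Across all 162 genes the median ratio was 2.83 at 0 min, 2.32 at 10 min and 2.37 at 30 min. The medians over all 5809 genes were 0.971, 1.01 and 1.02. The largest of a gene's 3 ratios fell at 0 min for 85 genes, at 10 min for 44 and at 30 min for 33. Ratios above 5 were reached by 25 genes at 0 min, 7 at 10 min and 0 at 30 min. Taken 1 time at a time, the threshold was passed by 9.21%, 7.09% and 7.99% of all genes at 0, 10 and 30 min.

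Of the 162 genes, 159 had every Xrn1-AID library above every Xrn1-WT library at 0 min, 158 at 10 min and 146 at 30 min. The same was true of 21.8%, 25.5% and 27.6% of all 5809 genes. At all 3 times together it held for 141 of the 162 and for 8.64% of all genes. In a fit across 6195 genes with edgeR's quasi-likelihood test, 152, 123 and 119 of them were higher at 0, 10 and 30 min at a Benjamini-Hochberg adjusted p under 0.05, where 16.2%, 17.3% and 11.5% of all tested genes were. The choice of the genes used these contrasts, so the counts describe them and test nothing.

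At the threshold, MEC3, a clamp subunit of the DNA damage checkpoint, was inside with a smallest ratio of 1.75403. YOL014W (1.754028) and YAL065C (1.7515) were inside too. Just outside were GLY1, the threonine aldolase, with 3.57, 1.74 and 1.94, the gene DDI3 with 2.06, 1.74 and 3.16, and YHR218W-A with 4.14, 1.74 and 2.01. By overall mean, PAU3 (20.03) and YML122C (20.7) were just inside, and MDJ2 (19.0) and YLR157W-D (18.9) just outside.

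**Figure D2:**
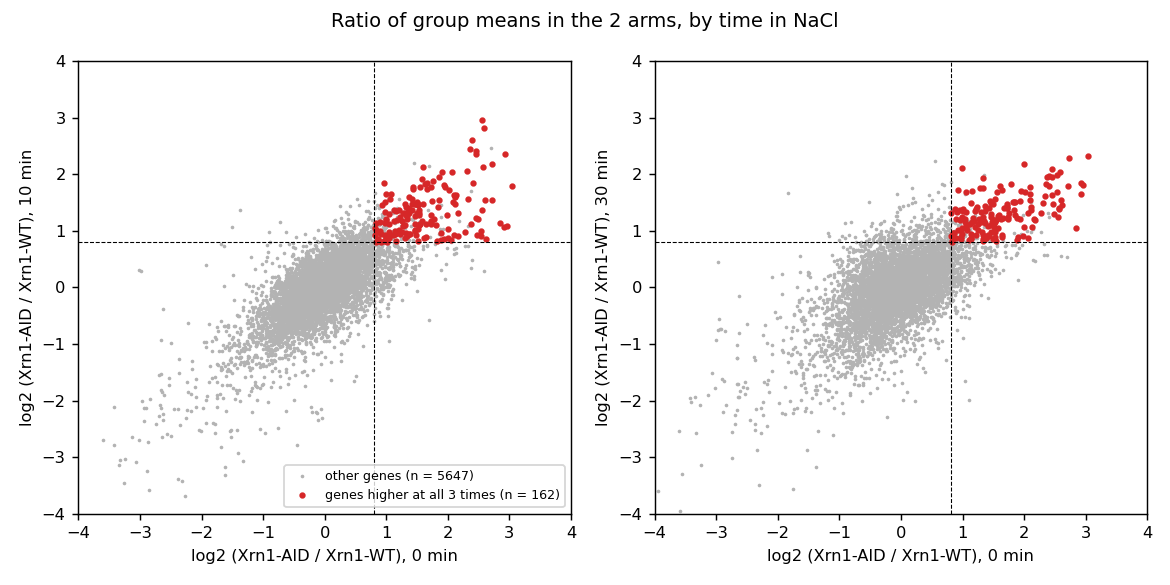
Log2 ratio of the Xrn1-AID mean to the Xrn1-WT mean at 10 min (left) and 30 min (right) against that at 0 min, for the 162 genes (red) and the other 5647 genes (grey); dashed lines mark the threshold of 75% above. The red points fill the upper right corner by construction, and grey points lie just outside both lines with no gap. 17 and 9 other genes lie outside the plotted range in the left and right panels.

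The 162 genes as a group separated the arms in every library. The rule, which used these same libraries, builds in a gap between the arms, so it is no separate result. Taking each gene's log2 of normalized count plus 1 and subtracting its mean over the Xrn1-WT 0 min libraries, the median over the 162 genes was 1.58, 1.61 and 1.63 in Xrn1-AID at 0 min. The 10 min libraries of this arm had medians of 1.31, 1.12 and 1.20, and its 30 min libraries 1.27 and 1.747. Across Xrn1-WT libraries it ran from -0.47 to 0.38, and the median over all 5809 genes ran from -0.04 to 0.02 in the 17 libraries. The lowest Xrn1-WT values were those of 0 min replicate 3 (-0.47) and 10 min replicate 2 (-0.44), the libraries farthest from the other replicates of their groups over all genes. Together the 162 genes took 0.0767% to 0.235% of the counts of a library in Xrn1-WT and 0.331% to 0.553% in Xrn1-AID. These are bulk levels, in which more cells with the transcript and more of it per cell cannot be told apart.

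**Figure D3:**
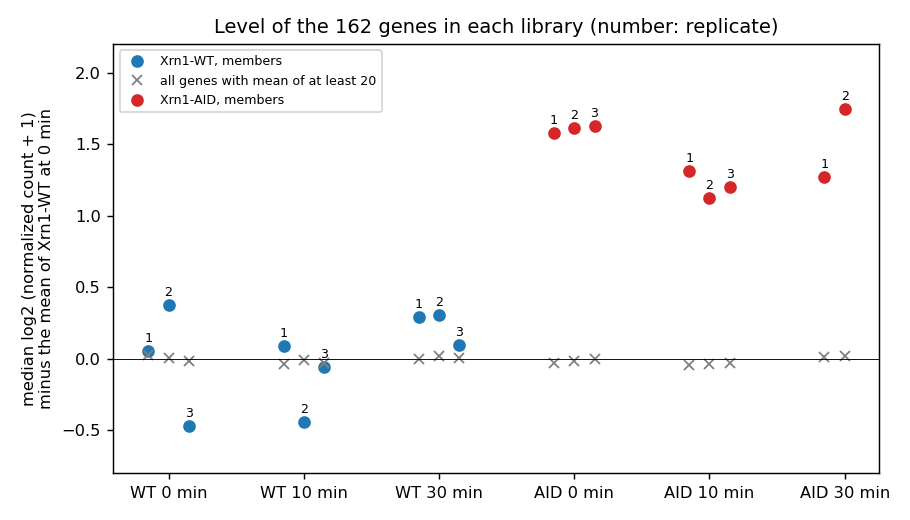
Median over the 162 genes (circles, numbered by replicate) and over all genes with a mean of at least 20 (crosses) of log2 (normalized count + 1), relative to the mean of Xrn1-WT at 0 min, in each of the 17 libraries. All 8 Xrn1-AID libraries stand above 1.1 and all 9 Xrn1-WT libraries below 0.4, while the crosses stay near 0. The choice of the genes builds in a gap between the arms.

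Single libraries moved the membership. Without Xrn1-AID 30 min replicate 2 the rule gave 96 genes, 92 of them among the 162, and without replicate 1 it gave 194. Leaving out the 2 outlying Xrn1-WT libraries gave 145 genes, 130 of them shared. Once GC content and coding length were corrected for, it gave 132 genes, 95 of them among the 152 members that are RefSeq coding genes, the only ones that correction covers. Other quantities moved with the arms too. Small nucleolar RNA took 0.018% to 0.108% of the counts in Xrn1-WT and 0.00889% to 0.0379% in Xrn1-AID, and mitochondrial reading frames 0.000264% to 0.0044% against 4.4e-06% to 0.000359%. Their part in the excess of the 162 genes was not tested. Total counts were 13.9 to 30.4 M per library. XRN1 mRNA, which does not show the state of the protein, had ratios of 2.31, 1.35 and 1.27 and was not among the 162. The 8 genes specific to mating type a all had a mean of at least 20, and of 5 genes specific to type alpha only SAG1 and AFB1 did.

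Genes found by the words linked to interrupted frames made up 7.10% of the 155 members found in RefSeq. Among all genes with a mean of at least 20 they made up 1.16% (65 genes). A match does not show an interrupted frame in each gene. BSC5 is noted for a layout compatible with readthrough, and YOL163W as a proposed inactive remnant. This grouping, like those by annotation below, was made after the 162 genes were known. FLO8, a transcription factor for flocculation and invasive growth that is interrupted in S288C, held 325, 420.2 and 189.9 normalized counts in Xrn1-WT and 740.5, 738 and 869 in Xrn1-AID at 0 min. At 10 min it held 171, 94.4 and 132 against 382, 362 and 331. At 30 min the counts were 257, 338 and 281 against 359 and 674, so the arms did not overlap at any time and were closest at 30 min. SDL1, annotated as a blocked frame for L-serine dehydratase, had ratios of 2.68, 2.79 and 1.91. AAD6, one of the aryl-alcohol dehydrogenase family, had 2.76, 2.03 and 2.16.

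YLR030W, whose annotated frame ends at codon 264, held 12.3, 24.7 and 2.42 in Xrn1-WT and 40.2, 45.2 and 52.4 in Xrn1-AID at 0 min, with no overlap. The remaining 7 were YIL165C, NIT1, YJL107C, YMR084W, BSC5, YOL163W and YAP7, the last a leucine zipper factor of the Yap family. Their smallest ratios ran down to 1.91. With the 2 outlying libraries left out 9 of the 11 stayed members. Of the 8 that are annotated as coding 7 did once GC and length were corrected for. Without Xrn1-AID 30 min replicate 2, 7 of the 11 stayed, and FLO8, YJL107C, YMR084W and YAP7 were lost. Nonsense-mediated decay targets known from other work gave 2 of 11 genes, FZF1, a regulator of sulfite export, and SPT10, a regulator of histone genes. Their ratios were 2.89, 2.44 and 2.22 and 2.91, 2.18 and 1.76. Both were lost without Xrn1-AID 30 min replicate 2, and SPT10 also once GC and length were corrected for. Of those 11 listed targets 7, 6 and 2 were higher in Xrn1-AID at 0, 10 and 30 min (edgeR, adjusted p under 0.05 over all genes) and 0 were lower, where 16.2%, 17.3% and 11.5% of all tested genes were higher and 16.4%, 10.9% and 11.0% lower. These counts are descriptions too, since FZF1 and SPT10 were chosen on the same contrasts.

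The strain's own mutant alleles form another set. ADE2 of adenine synthesis, HIS3 of histidine synthesis and LEU2 of leucine synthesis were all among the 162, and the genotype gives them as ade2-1, his3-11,15 and leu2-3,112. As background, ade2-1, trp1-1 and can1-100 are known as nonsense alleles and the leu2 and his3 alleles as frameshifts. ADE2 held 452, 548 and 515 normalized counts in Xrn1-WT and 1401, 1437 and 1348 in Xrn1-AID at 0 min, and 657, 705 and 591 against 1873 and 1809 at 30 min. Its replicates were tight and the arms did not overlap at any time. LEU2, with the highest overall mean of the 162 (5344), held 3388, 2894 and 6387 against 8019, 9554 and 7623 at 0 min and 1764, 2313 and 1735 against 6543, 5988 and 5745 at 10 min. Xrn1-WT 0 min replicate 3 was the highest of its group here, yet the arms did not overlap.

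HIS3 held 498, 405 and 684 in Xrn1-WT against 1379.5, 1947 and 1615 in Xrn1-AID at 0 min, and the degron construct is itself marked (HIS). Reads from his3-11,15 and from a HIS3 marker, if that is the gene meant, could not be separated. TRP1 of tryptophan synthesis and CAN1, the arginine permease, missed the rule. TRP1 had ratios of 1.57, 1.47 and 2.41 and CAN1 ratios of 3.61, 1.93 and 1.68, so that TRP1 passed the threshold at 30 min alone and CAN1 failed at 30 min alone. URA3, which is present both as ura3-1 and as the functional marker, had ratios of 0.843, 0.750 and 0.888. The genes named here were picked after their values were seen.

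Transcription factors with a basic helix-loop-helix domain, which bind E-box sequences as dimers, gave 4 of the 8 genes so annotated: RTG1, INO2, PHO4 and CBF1. INO2, the activator of phospholipid synthesis genes, had ratios of 3.02, 2.78 and 2.42. PHO4, the activator of the phosphate regulon, had 2.75, 2.00 and 1.98, and CBF1, a factor of centromeres and of methionine genes, had 1.79, 2.02 and 1.85. PHO4 held 373, 726 and 127 normalized counts in Xrn1-WT and 1024, 1123 and 1236 in Xrn1-AID at 0 min, with replicate 3 of Xrn1-WT the lowest by far. PHO4 and CBF1 were no longer members with the 2 outlying libraries left out, while RTG1 and INO2 were. All 4 were lost without Xrn1-AID 30 min replicate 2. Usual partners were outside the set. RTG3, the partner of Rtg1, had 1.61, 1.82 and 1.02, and INO4, the partner of Ino2, had 1.38, 1.73 and 1.79. TYE7 (1.40, 1.14 and 1.28) and HMS1 (1.23, 1.28 and 0.414), which carry the same annotation, were outside too. Among 16 listed phosphate regulon genes, which include targets of Pho4, 0 were members. Of these 16, 0, 1 and 4 were higher and 9, 8 and 1 lower in Xrn1-AID at 0, 10 and 30 min (edgeR, adjusted p under 0.05). Of all tested genes 16.2%, 17.3% and 11.5% were higher and 16.4%, 10.9% and 11.0% lower.

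Aryl-alcohol dehydrogenases, a family of oxidoreductases near chromosome ends, gave 4 of 6: AAD3, AAD6, AAD14 and AAD15. AAD6 held 194, 219 and 136 in Xrn1-WT and 519.96, 482 and 518 in Xrn1-AID at 0 min. AAD14 held 228, 270.1 and 160.00 against 499, 519 and 524, and the arms of both genes did not overlap at this time. AAD4 and AAD10 missed the rule with ratios of 1.64, 1.33 and 1.97 and of 1.64, 1.79 and 1.88. The copies are alike enough that reads may have been assigned to the wrong one, and of AAD3, AAD14 and AAD15, which the correction for GC and length covers, only AAD15 stayed under it. With GTT2, a glutathione transferase (2.88, 2.58 and 2.94), AAD6, AAD14 and AAD15 were 4 of the 18 genes of the Yap1 oxidative stress list. Including these 4, chosen on the same contrasts, 6, 4 and 5 of the list were higher and 2, 1 and 0 lower in Xrn1-AID at 0, 10 and 30 min, beside the shares of all genes given for the decay targets. The median log2 fold change of the list was -0.001 at 0 min, 0.04 at 10 min and 0.28 at 30 min. The medians of all tested genes were -0.02, 0.09 and 0.04. The thioredoxin gene TRX2 and the thioredoxin reductase gene TRR1 of that list were not members.

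Genes whose notes mention allantoin or a related word gave 3 of 11. Allantoin is a purine breakdown product that can serve as a nitrogen source. The 3 were DAL2, the allantoicase, DAL5, the allantoate permease, and DAL7, a malate synthase. DAL7 held 626, 719 and 864 normalized counts in Xrn1-WT at 0 min and 1734, 1872 and 1751 in Xrn1-AID. At 30 min it held 469, 575 and 370.3 against 1531 and 1643. Its arms stood apart at each time, with ratios of 2.42, 2.11 and 3.36. DAL5 had ratios of 2.11, 3.15 and 2.02 and DAL2 of 1.99, 1.83 and 2.35. DAL4 (1.25, 0.719 and 1.26), SEO1 (0.986, 0.790 and 1.15) and DAL81 (1.32, 1.34 and 1.09) stayed below the threshold at every time. DUR12 (1.82, 1.05 and 1.76), DUR3 (2.32, 1.16 and 2.08) and SOA1 (2.77, 1.96 and 1.31) passed it at some times only. So did DAL1 (1.749, 1.98 and 1.08) and DAL3 (1.41, 1.34 and 2.92). GZF3, a GATA factor that represses nitrogen catabolic genes, was a member with 2.71, 3.43 and 2.63, whereas the GATA factors GLN3 (1.46, 1.45 and 0.906), GAT1 (1.65, 1.26 and 1.37) and DAL80 (1.20, 0.961 and 1.44) were not. The promoters of these 4 members, RefSeq R64 from 250 bases before to 50 bases after the start codon's first position, are shown because GATA factors bind GATAAG. Capitals mark GATAAG or its reverse complement CTTATC.
DAL2 (chrIX:410557-410856, plus strand): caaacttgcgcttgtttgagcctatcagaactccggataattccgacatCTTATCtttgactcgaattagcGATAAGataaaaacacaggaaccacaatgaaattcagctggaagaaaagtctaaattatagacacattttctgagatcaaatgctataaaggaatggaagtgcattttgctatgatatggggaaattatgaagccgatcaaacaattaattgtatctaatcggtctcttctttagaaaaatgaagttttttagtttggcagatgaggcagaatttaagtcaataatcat
DAL5 (chrX:719416-719715, plus strand): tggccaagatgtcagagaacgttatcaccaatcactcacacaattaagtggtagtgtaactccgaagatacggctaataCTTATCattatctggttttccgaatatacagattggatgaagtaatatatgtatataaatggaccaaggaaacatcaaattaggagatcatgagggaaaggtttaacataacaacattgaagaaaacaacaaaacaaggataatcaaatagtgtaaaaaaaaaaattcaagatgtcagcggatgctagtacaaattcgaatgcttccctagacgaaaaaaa
DAL7 (chrIX:414630-414929, minus strand): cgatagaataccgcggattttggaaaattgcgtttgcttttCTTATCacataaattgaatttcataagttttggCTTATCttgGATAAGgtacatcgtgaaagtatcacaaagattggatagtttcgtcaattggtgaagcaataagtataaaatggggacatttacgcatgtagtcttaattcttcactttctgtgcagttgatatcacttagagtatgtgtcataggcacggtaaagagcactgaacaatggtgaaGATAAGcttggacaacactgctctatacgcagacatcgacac
GZF3 (chrX:211528-211827, minus strand): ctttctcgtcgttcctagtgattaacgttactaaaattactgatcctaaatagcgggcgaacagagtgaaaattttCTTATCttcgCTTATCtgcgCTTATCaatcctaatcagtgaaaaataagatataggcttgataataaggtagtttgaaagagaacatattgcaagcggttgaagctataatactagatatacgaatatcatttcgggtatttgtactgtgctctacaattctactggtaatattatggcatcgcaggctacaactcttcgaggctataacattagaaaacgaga
The motif, searched on both strands, occurred 2, 1, 4 and 3 times in these stretches. The last site of DAL7 lies after the start codon, inside the coding sequence. The motif was in 18.1% of the promoters of all 155 located members and in 14.8% of all promoters of genes with a mean of at least 20, so its share among the members is close to that of all genes. The Yap1 motif TTACTAA was in 10.3% against 7.71%, the E-box CACGTG in 3.87% against 2.94%, and the pheromone motif TGAAACA in 2.58% against 7.26%.

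Other groups were counted by words in the RefSeq notes, chosen after the members were known. Meiosis or sporulation was noted for 5.16% of members and 4.59% of all genes, ribosome biogenesis for 1.29% and 2.50%, and mitochondria for 8.39% and 12.8%. Genes with splicing in their notes gave 8 of 160, 5.16% of members and 2.86% of all genes, where SWT21, BUD31, PRP18, YJU2, MSL1, LUC7 and SPP381 act in or with the spliceosome and YPR202W is noted only as possibly spliced. MSL1, a protein of the U2 particle, held 133, 151 and 75.2 in Xrn1-WT and 304, 329 and 303 in Xrn1-AID at 0 min, with no overlap. Without Xrn1-AID 30 min replicate 2, SWT21 alone of the 8 stayed a member. Kinetochore notes gave 5 of 67, IML3, NKP2, CTF19 and NSL1 besides CBF1, 3.23% of members and 1.20% of all genes, and 0 of the 5 stayed without Xrn1-AID 30 min replicate 2. NKP2 had ratios of 3.75, 4.10 and 1.85. DNA damage or repair notes gave 8 of 156, 5.16% of members and 2.78% of all genes, among them SAE2, which starts the resection of broken ends, the Holliday junction resolvase gene YEN1 and the ligase partner gene LIF1. YEN1 had ratios of 2.34, 1.92 and 2.60. Without Xrn1-AID 30 min replicate 2, 4 of the 8 stayed, with SAE2 and LIF1 among those lost. A note as a hypothetical protein was carried by 37 members, 23.9% against 9.14% of all genes.

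Lists are counted here over their genes with a mean of at least 20. Iron regulon genes gave FRE3, a siderophore reductase, as 1 of 23, with ratios of 2.31, 2.59 and 2.56. Meiosis and sporulation genes gave 3 of 42: REC8, a meiotic cohesin, NDJ1, a telomere protein of meiosis, and HFM1, a helicase of crossing over. Without Xrn1-AID 30 min replicate 2, HFM1 alone of the 3 stayed a member. REC8 was low throughout, with 15.2, 14.9 and 14.8 in Xrn1-WT and 50.1 and 69.7 in Xrn1-AID at 30 min, and did not overlap there. Thiamine genes gave THI22 as 1 of 20. Telomeric families gave COS10 and MAL11, the maltose permease, as 2 of 35, and cell wall PAU genes PAU3 and PAU7 as 2 of 21. Of 21 thiamine genes tested, 12, 8 and 12 were higher and 0 lower in Xrn1-AID at 0, 10 and 30 min. For 35 telomeric genes tested these counts were 19, 3 and 11 higher and 1, 2 and 3 lower. For 29 PAU genes tested they were 5, 1 and 19 higher and 0, 1 and 1 lower. The shares of all genes are those given for the decay targets, and members were chosen on the same contrasts. The lists for 5′ to 3′ decay and decapping (22 genes), pleiotropic drug resistance (19), Hog1 osmostress effectors (25), Msn2/Msn4 general stress (47), core histones (11), ribosome biogenesis (40) and the cell cycle (28) gave 0 members. The lists of mating and pheromone genes gave 0 as well. In the decay list itself 1, 1 and 0 genes were higher and 5, 4 and 3 lower in Xrn1-AID at 0, 10 and 30 min, where 16.4%, 10.9% and 11.0% of all tested genes were lower.

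The 162 genes tended to be weakly expressed and to lie near chromosome ends. Their overall mean had a median of 146 normalized counts against 823 for all genes, and per kb of coding length 176 against 659. These levels come from the counts that the rule used. How far a choice by ratio favours genes with low counts was not tested. Coding length had a median of 908 bases in the members and 1245 in all genes, GC content of 41.9% against 39.8%, and a codon adaptation index, computed from 132 ribosomal protein genes, of 0.170 against 0.196. The median distance to the nearest chromosome end was 94.7 kb against 209 kb. Within 30 kb of an end lay 27.7% of the 155 located members and 5.44% of all genes, and within 20 kb 18.7% against 3.23%. With the 2 outlying libraries left out the share within 30 kb was 28.7%, and once GC and length were corrected for it was 17.4%. Chromosome III held 8.39% of members against 2.73% of all genes, and chromosome VI 5.16% against 1.95%. Some members on both, such as AAD3 and AAD6, lie within 30 kb of an end. How far the shares of these chromosomes follow from nearness to an end was not tested. These shares describe the set and were not tested.

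**Figure D4:**
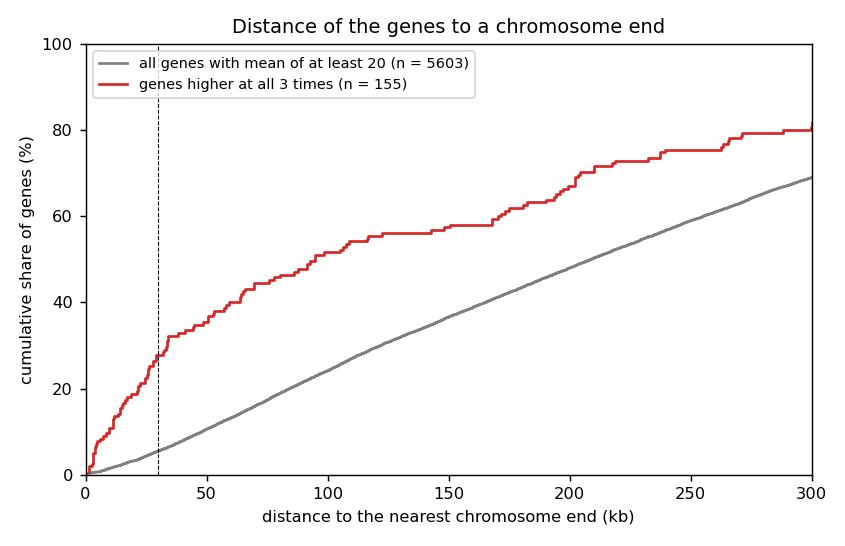
Cumulative share of genes (%) by distance to the nearest chromosome end (kb, shown to 300), for 155 of the 162 genes (red) and for 5603 genes with a mean of at least 20 (grey). At 30 kb (dashed line) the red curve has reached 27.7% and the grey curve 5.44%.

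Members also stood side by side on the chromosomes. 20 members formed 8 runs of adjacent genes. They were 12.9% of the 155 located members, while 4.52% of all genes with a mean of at least 20 lay next to a member. How far this follows from nearness to chromosome ends was not tested. The longest run held 5 genes near the right end of chromosome III (chrIII:300832-308175): YCR099C, EMA35, YCR101C, YCR102C and PAU3, with RDS1, a zinc cluster factor, and AAD3 in another run close by. On chromosome X, DAL5, PGU1, the pectin-degrading endo-polygalacturonase, and YJR154W followed each other on the same strand (chrX:719666-726824). PGU1 held 99.4, 102 and 103 in Xrn1-WT and 258, 236 and 247 in Xrn1-AID at 0 min, ratios of 2.42, 2.50 and 2.30 over the times sampled, and no overlap at 0 min. The next gene on that arm, AAD10, missed the rule as described. YIL165C with NIT1, AAD6 with the amino acid permease gene AGP3, BDS1 with YOL163W, RDR1 with FRE3, and PAU7 with DFP1 made up the remaining pairs. BDS1, an alkyl sulfatase gene, held 303, 368 and 441 against 1149, 1311 and 1229.9 at 0 min. Whether counts from 1 transcript were assigned to both neighbours of a run was not tested.

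The Y′ elements at chromosome ends supplied YBL111C, YFL066C, YHR218W and YPR202W, 4 of 20 genes with such notes. The other 16 had ratios of 1.83 to 2.47 at 0 min, 0.963 to 1.26 at 10 min and 1.82 to 2.05 at 30 min. With the 2 outlying libraries left out YHR218W alone stayed, and 0 of the 4 stayed both there and once GC and length were corrected for. YHR218W held 57.4, 124 and 17.8 in Xrn1-WT and 502, 398 and 628 in Xrn1-AID at 0 min, and 109.6, 59.2 and 77.7 against 169.6, 179.6 and 171 at 10 min. Its ratio was 7.55 at 0 min and 2.097 at 10 min, as the Xrn1-AID libraries fell between these times. Near-identical copies make these counts uncertain, as for YLR156W, YLR159W and YLR161W, for the enolase-related ERR1 and ERR3, and for PAU3, PAU7 and COS10. The IDs YIL028W, YIL168W, YCR045W-A, YJL215C, YNL043C, YNL276C and tY(GUA)M1, the last a tRNA gene by its name, matched no RefSeq locus and have no position here.

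The next question was how these genes responded to NaCl within each arm. The rule set no condition on these changes but used the group means that they compare. The choice can therefore shift the changes of members and their shares beside those of all genes. All 162 passed the filter on low counts and were tested among 6195 genes. In Xrn1-WT, 14 were higher and 35 lower at 10 than at 0 min (8.64% and 21.6%), where 19.7% and 24.6% of all tested genes were. At 30 min 33 were higher and 21 lower (20.4% and 13.0%) against 29.1% and 27.5%. In Xrn1-AID 8 were higher and 38 lower at 10 min (4.94% and 23.5%) against 19.0% and 16.6%, and 25 higher and 32 lower at 30 min (15.4% and 19.8%) against 27.2% and 26.6%. Their median log2 fold change from 0 to 10 min was -0.25 in Xrn1-WT and -0.44 in Xrn1-AID, beside -0.06 and -0.03 for all genes. From 0 to 30 min it was 0.13 and -0.13, beside 0.01 and 0.01.

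From 10 to 30 min 49 members rose and 14 fell in Xrn1-WT (30.2% and 8.64%), where 30.6% and 25.7% of all genes did, and 99 were not called. In Xrn1-AID 38 rose and 9 fell (23.5% and 5.56%), where 19.8% and 22.1% of all genes did, and 115 were not called. The shares that rose are thus near those of all genes. The split depended on the scaling: by library size alone the counts of higher and lower members were 6 and 56 in Xrn1-WT at 10 min, 45 and 6 at 30 min, and 92 and 4 from 10 to 30 min. In Xrn1-AID they were 4 and 57, 32 and 11, and 72 and 5. Single libraries mattered as well. Without Xrn1-AID 30 min replicate 1, 10 members were lower at 30 min in Xrn1-AID, while 20 were without Xrn1-AID 0 min replicate 3. Without Xrn1-AID 10 min replicate 2 or replicate 3, 25 were lower at 10 min. From 10 to 30 min in this arm 5 fell without 30 min replicate 1, and 22 rose and 14 fell without 30 min replicate 2. In Xrn1-WT, 24 were higher at 10 min without 0 min replicate 2 and 8 without any 1 of 4 others (0 min replicate 1 or 3, 10 min replicate 1 or 3), and 12 were lower at 30 min without 30 min replicate 3.

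The arms share no library in these contrasts, and 30 members (18.5%) passed in both at 10 min, all in the same direction (7 higher, 23 lower). Of all tested genes 26.6% did, 99.3% of them in the same direction. At 30 min 41 members (25.3%) passed in both, again all in the same direction (24 higher, 17 lower), beside 43.7% of all tested genes, 99.5% of them in the same direction. A like direction in both arms is therefore general to the genes called and no trait of the members. A further 19 passed at 10 min in Xrn1-WT alone and 16 in Xrn1-AID alone. At 30 min these numbers were 13 and 16. Passing in 1 arm alone does not show that the arms differed, and the difference is built from contrasts that chose the genes, so it was not tested.

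**Figure D5:**
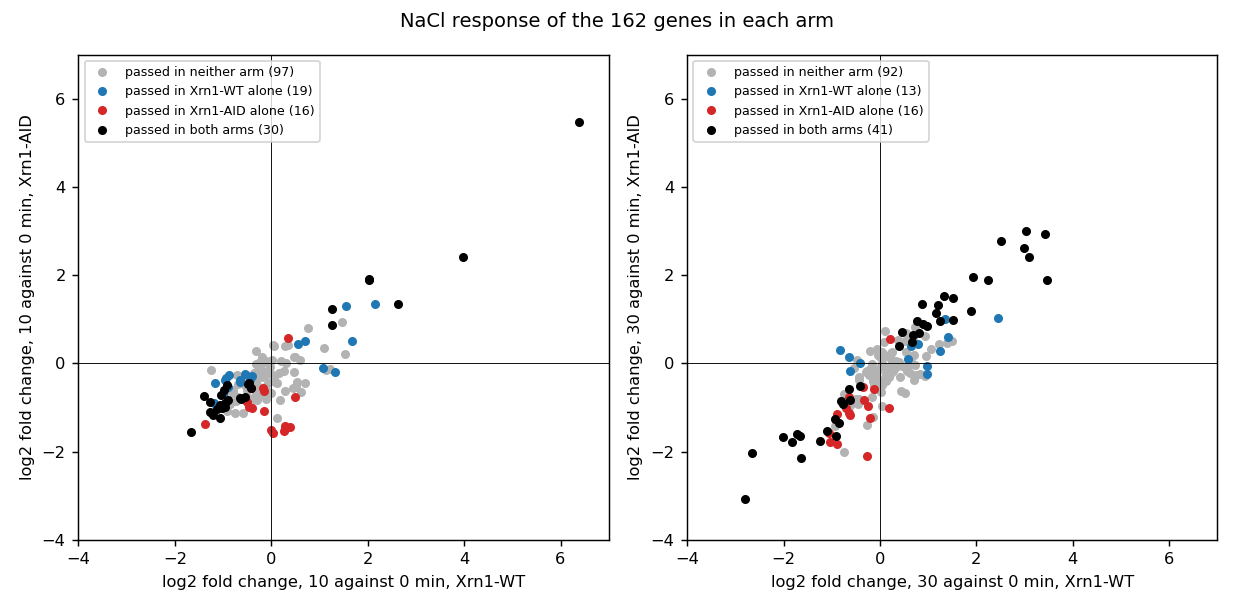
Log2 fold change of the 162 genes from 0 to 10 min (left) and from 0 to 30 min (right) of NaCl, Xrn1-AID against Xrn1-WT, coloured by the arm in which edgeR's adjusted p was under 0.05 (black, both arms). The 30 and 41 black points all lie to the lower left or the upper right of 0, and YJL107C is at the top right of the left panel.

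YJL107C, an uncharacterized gene whose frame is merged with PRM10 in related strains, rose most. It went from 82.0, 110.3 and 9.70 normalized counts at 0 min to 7695, 2296 and 7086 at 10 min in Xrn1-WT, a log2 fold change of 6.38 ± 0.76 (SE, edgeR adjusted p = 5.26e-06). In Xrn1-AID it went from 292, 190.2 and 275 to 11301, 10989 and 10892, a change of 5.47 ± 0.72 (adjusted p = 1.72e-05). No 10 min library overlapped a 0 min library in either arm. Without Xrn1-WT 0 min replicate 2 the first change was 6.99. At 10 min the Xrn1-WT mean included the low replicate 2, and the gene was no longer a member with the 2 outlying libraries left out.

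YMR084W and YCL042W, also uncharacterized, rose at 10 min in both arms. The change of YMR084W was 2.62 ± 0.47 in Xrn1-WT (edgeR adjusted p = 0.000294) and 1.35 ± 0.39 in Xrn1-AID (0.0131), a call that ended with library size alone (1.02, adjusted p = 0.111). YCL042W changed by 3.98 ± 0.68 and 2.41 ± 0.52, and the first was 5.73 without Xrn1-WT 0 min replicate 2 and 3.34 without replicate 3. YJL213W, one of the most abundant members, rose from 325, 278 and 230.3 to 1032, 949 and 1488 in Xrn1-WT, a change of 2.02 ± 0.19 (adjusted p = 2.7e-07). In Xrn1-AID it rose from 690.5, 869 and 791 to 3071, 2785 and 2795, a change of 1.90 ± 0.18 (adjusted p = 4.43e-07). The 0 and 10 min libraries did not overlap in either arm.

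GTO3, an omega-class glutathione transferase, rose by 30 min, by 3.42 ± 0.64 in Xrn1-WT (edgeR adjusted p = 0.000235) and 2.94 ± 0.61 in Xrn1-AID (0.000696). Without Xrn1-WT 0 min replicate 2 the first was 4.89, and without Xrn1-AID 30 min replicate 2 the other was 2.16. The enolase-related ERR1 rose by 3.02 ± 0.38 and 3.00 ± 0.38 at 30 min and ERR3 by 2.50 ± 0.49 and 2.77 ± 0.48, the first value of ERR3 being 3.51 without Xrn1-WT 0 min replicate 3. HAP5, a subunit of the CCAAT-binding activator of respiratory genes, rose in Xrn1-WT from 279, 323 and 216 normalized counts before NaCl to 458, 543 and 495 after 30 min, a change of 0.89 ± 0.19 (adjusted p = 0.000631). The maltose permease gene MAL11 fell at 10 min (-0.65 ± 0.19 and -0.79 ± 0.18) and rose at 30 min (1.25 ± 0.18 and 0.96 ± 0.20) in Xrn1-WT and Xrn1-AID. Its fall in Xrn1-WT did not pass with the 2 outlying libraries left out (adjusted p = 0.0894) or in a fit of the 2 groups alone (0.110). HAP5 and MAL11 were named for their roles, after their values were seen.

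Falling members included metabolic genes of high level. ALD5, the mitochondrial aldehyde dehydrogenase, went from 2410.5, 3542 and 1933 to 395, 366 and 365 normalized counts over 30 min in Xrn1-WT, a change of -2.79 ± 0.21 (edgeR adjusted p = 1.03e-08). In Xrn1-AID it went from 5679, 5488 and 6155 to 609 and 750.3, a change of -3.08 ± 0.25 (adjusted p = 4.51e-08). The 30 min libraries of both arms lay far below all 0 min libraries. IRC7, a cysteine desulfhydrase that releases thiols, changed by -2.65 ± 0.20 in Xrn1-WT and -2.02 ± 0.22 in Xrn1-AID at 30 min (adjusted p = 6.74e-09 and 1e-06). YOL014W moved both ways: it rose at 10 min (2.02 ± 0.18 and 1.89 ± 0.17) and was lower than at the start at 30 min (-2.01 ± 0.18 and -1.66 ± 0.20).

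TOP3, the topoisomerase III of recombination intermediates, fell at 10 min, by -1.66 ± 0.38 in Xrn1-WT and -1.56 ± 0.32 in Xrn1-AID (edgeR adjusted p = 0.00233 and 0.00112). DAL5 and GZF3 fell together at 10 min. DAL5 changed by -1.39 ± 0.21 in Xrn1-WT and -0.75 ± 0.20 in Xrn1-AID, and GZF3 by -1.27 ± 0.21 and -0.88 ± 0.20, all 4 at adjusted p of 0.00701 or less. At 30 min DAL5 no longer differed by the test from 0 min (-0.16 ± 0.20 and -0.24 ± 0.22), while GZF3 was still lower (-0.81 ± 0.21 and -0.86 ± 0.23). That call ended in both arms with scaling by library size alone, and in Xrn1-AID without 30 min replicate 1 (adjusted p = 0.0878). FLO8 fell at 10 min (-1.27 ± 0.30 and -1.10 ± 0.28), and LEU2 did in Xrn1-WT (-1.17 ± 0.24, adjusted p = 0.000852) but did not pass in Xrn1-AID (-0.44 ± 0.24, adjusted p = 0.159), where it passed with library size alone (adjusted p = 0.00114) and in a fit of the 2 groups alone (0.0194).

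In Xrn1-AID the kinetochore gene CTF19 and the uncharacterized YKR041W fell at 30 min, with changes of -2.15 ± 0.58 and -2.095 ± 0.58 (edgeR adjusted p = 0.00557 and 0.00587). Both calls ended without Xrn1-AID 30 min replicate 1 (adjusted p = 0.0746 and 0.0703), and without replicate 2 the changes were -2.99 and -3.03. At 10 min in this arm the subtelomeric genes YHL049C and YHR218W fell, with changes of -1.58 ± 0.50 and -1.53 ± 0.46 (adjusted p = 0.0212 and 0.0161). The call of YHL049C ended without any of 4 libraries (Xrn1-AID 0 min replicate 1 or 3, 10 min replicate 2 or 3), with adjusted p up to 0.0865. That of YHR218W ended without any of 3 (0 min replicate 3, 10 min replicate 1 or 3), with adjusted p up to 0.0622.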

How the data were processed

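Poly(A)-selected RNA of 17 libraries was measured by a stranded mRNA kit with single 50-base reads on a HiSeq 2500, per the labels' protocols. The authors deposited raw read counts per gene for 7126 features. The submitters' processing notes name the sacCer3 build and, without their roles, DESeq2 1.22.2, featureCounts 1.5.1 and TopHat2 2.1.0. The strand setting, the treatment of multiply aligned reads and the annotation are not given in the sources used here. The members and gene lists were chosen with earlier results of these data known, and annotation groups after the members were known. Counts were divided by median-of-ratios size factors (DESeq2 1.42.0) for the rule and the levels. Time contrasts were fitted on raw counts with edgeR 4.0.16 in R 4.3.3: filterByExpr, TMM, quasi-likelihood with robust estimation, 1 mean per group, Benjamini-Hochberg over all 6195 genes, threshold 0.05. SE is the fold change over the square root of F. Genes were named by rank (10 by smallest ratio, 6 by overall mean, 3 per side of the threshold, 3 per direction and time contrast, members of a list), and others for their roles, as stated. Features, positions and promoters came from RefSeq R64 with Python 3.11.15. Procedures were tested on simulated data with 200 changed genes. A count of 0 allowed up to 3 counts, 1.85 to 5.55 normalized counts by library, counting error only. Alternatives were other scalings, thresholds, filters, blocks, compared groups only and left-out libraries; a correction of each library for GC and length (natural splines, 5 degrees of freedom) and omission of Xrn1-WT 0 min replicate 3 with 10 min replicate 2 were chosen after seeing the data. The labels do not say that replicates were separate cultures, so p-values may measure technical spread. Same-numbered libraries of 2 groups did not deviate together, so numbers were not used as pairs.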

Additional observations from a re-analysis of the deposited data

How the results depend on the processing

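The number of genes meeting the rule was 288 at a ratio of 1.5 and 88 at a ratio of 2. It ranged from 96 to 194 when 1 library was left out, and was 179 with TMM scaling (all 162 included) and 195 with library size alone (154 shared). Leaving out single libraries gave between 38 and 55 called members for Xrn1-WT at 10 against 0 min, 43 and 63 at 30 against 0 min, and 52 and 56 at 30 against 10 min. For Xrn1-AID the ranges were 32 to 39, 35 to 52 and 36 to 47. Library size alone called 96 and 77 members at 30 against 10 min in Xrn1-WT and Xrn1-AID. A filter at 10 CPM left 74 members, so fewer could be called: 32, 23 and 36 in Xrn1-WT for 10 against 0, 30 against 0 and 30 against 10 min, and 24 and 28 in Xrn1-AID for 30 against 0 and 30 against 10 min. A fit of only the 2 groups compared called 20 in Xrn1-WT and 90 in Xrn1-AID at 10 against 0 min, and the cause was not tested. With the replicate number of the titles as a block, 43, 45 and 58 members were called in Xrn1-WT and 45, 53 and 42 in Xrn1-AID, but the numbers do not pair the samples. Xrn1-AID 30 min replicate 2 is numbered 3 in its description. With the description numbers as a block the counts were 40, 45 and 57 in Xrn1-WT and 42, 45 and 41 in Xrn1-AID, with 21 members lower in Xrn1-AID at 30 against 0 min in place of 32. Of the 47 changes over time given for 21 genes, those of DAL5 at 30 against 0 min, which did not pass the test, turned to 0.26 in Xrn1-WT and 0.031 in Xrn1-AID with library size alone. Of the other values under the alternatives run, 635 kept their direction and side of the threshold, 15 lost the call and 2 gained it. Low counts limit genes such as YCR006C, MCO14 and RIM9, which held 0 to 24.1 normalized counts in some Xrn1-WT libraries, near the floor that a count of 0 allows.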

Other observations

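Members outside the groups above, picked after their values were seen, included assembly factors of the respiratory chain. COX19, which serves the assembly of cytochrome oxidase, had Xrn1-AID to Xrn1-WT ratios of 3.59, 2.68 and 2.84 at 0, 10 and 30 min, and ATP10, which serves that of the ATP synthase, had 4.33, 3.03 and 2.57. The autophagy gene ATG15, the vacuolar lipase, had ratios of 5.47, 2.34 and 3.12, and ATG29 had ratios of 2.99, 3.78 and 2.39. ATG29 held 30.7, 52.1 and 5.66 normalized counts in Xrn1-WT at 0 min and 144, 124 and 147 at 30 min. In Xrn1-AID it held 98.6, 62.4 and 109.5 at 0 min, against 182 and 482 in the 2 libraries of 30 min. In both arms its 30 min libraries lay above all 0 min libraries. PCK1, the gluconeogenic carboxykinase, had ratios of 3.17, 3.62 and 2.35 and CDD1, a cytidine deaminase, 5.94, 4.38 and 2.65.

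MDJ2, a mitochondrial co-chaperone, missed the set only by its overall mean of 19.0 and had ratios of 5.18, 3.77 and 3.99. With the arms exchanged in the rule, 205 of 5809 genes had an Xrn1-WT mean at least 75% above the Xrn1-AID mean at all 3 times.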
